A study of Danio rerio with 18 samples.

Results

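The genes described here are 6 chaperones and folding factors of the endoplasmic reticulum (ER), hspa5, hsp90b1, hyou1, canx, manf and pdia4, and the transcription factor gene xbp1. They were taken by the platform's gene symbol, and the list was drawn up with genotype differences of these same arrays in view. The levels and differences of the 7 genes below are therefore a description, given with their errors and without a p-value. They are measured by 8 of the 15502 probe sets tested (manf has a pair of probe sets), and are 7 of the 8793 genes named on the array.

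RNA was measured on 18 Affymetrix zebrafish arrays at 52 hours post fertilization. The 6 groups of 3 arrays were retina of the smarca4 mutant called young and of wild type fish, retina with the retinal pigment epithelium (RPE) attached of mutant and wild type, and whole embryos of mutant and wild type, all of strain AB. smarca4 encodes an ATPase of the SWI/SNF complexes, which move nucleosomes. Each array held 1 pool of 10 embryos or tissues, but replicate 2 of mutant retina held 9, and the mutant pools with RPE held 6. Mutants were staged through their wild type siblings, and the labels do not name the allele. The pools are labelled as biological replicates, so errors and p-values measure the spread between pools. Levels are log2 signals, and differences are log2 signal in mutant minus wild type ± SE of a limma fit over all arrays, with n = 3 arrays per group. For each probe set, the fit shares 1 estimate of spread over the 6 groups. The median SD was 0.17 in mutant RPE-attached arrays and 0.11 to 0.12 in the other groups. SEs and p-values in RPE-attached retina can therefore be too small for genes that vary more there. This fit has no block for replicate number, though same-numbered embryo and retina arrays deviated together. In a fit of the embryo and retina arrays alone with that block, the SEs of the 8 probe sets were 0.07 to 0.10. They were 0.10 to 0.21 in the fit over all arrays without it. These fits differ in their arrays as well as in the block, and the part of each in the SEs was not tested. A probe set was called at a limma adjusted p under 0.05. In pooled tissue, fewer cells of a type and less RNA per cell cannot be told apart.

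Proteins that enter the secretory pathway fold inside the ER with the help of chaperones held there. hspa5 encodes BiP, the HSP70 chaperone of the ER, which binds unfolded chains and keeps the stress sensors of the ER membrane inactive, and hyou1 encodes its nucleotide exchange factor. hsp90b1 encodes GRP94, the HSP90 of the ER. canx encodes calnexin, a membrane lectin that holds newly glycosylated proteins, and pdia4 encodes a disulfide isomerase. manf encodes a small protein that binds BiP and can be secreted under ER stress, where it protects neurons in mammals. When unfolded proteins build up, the sensor IRE1 splices xbp1 RNA into a form that encodes an active transcription factor, while the sensors PERK and ATF6 act through translation and through a cleaved factor. These branches make up the unfolded protein response, known for raising many of these chaperones. The arrays measured RNA level only. Splicing of xbp1, phosphorylation of the sensors and protein amounts were not measured.

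In retina and in RPE-attached retina, 6 of the 7 genes had a lower mean signal in mutants than in wild type, and pdia4 had a higher one. The differences of hspa5 and xbp1 in RPE-attached retina were the largest in size among the 7 genes, at 2.74-fold and 2.73-fold lower in mutants. In whole embryos 5 of the genes were again lower in mutants and pdia4 higher, while xbp1 had nearly the same level in both genotypes. The plot of signals by array shows every value.

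**Figure D1:**
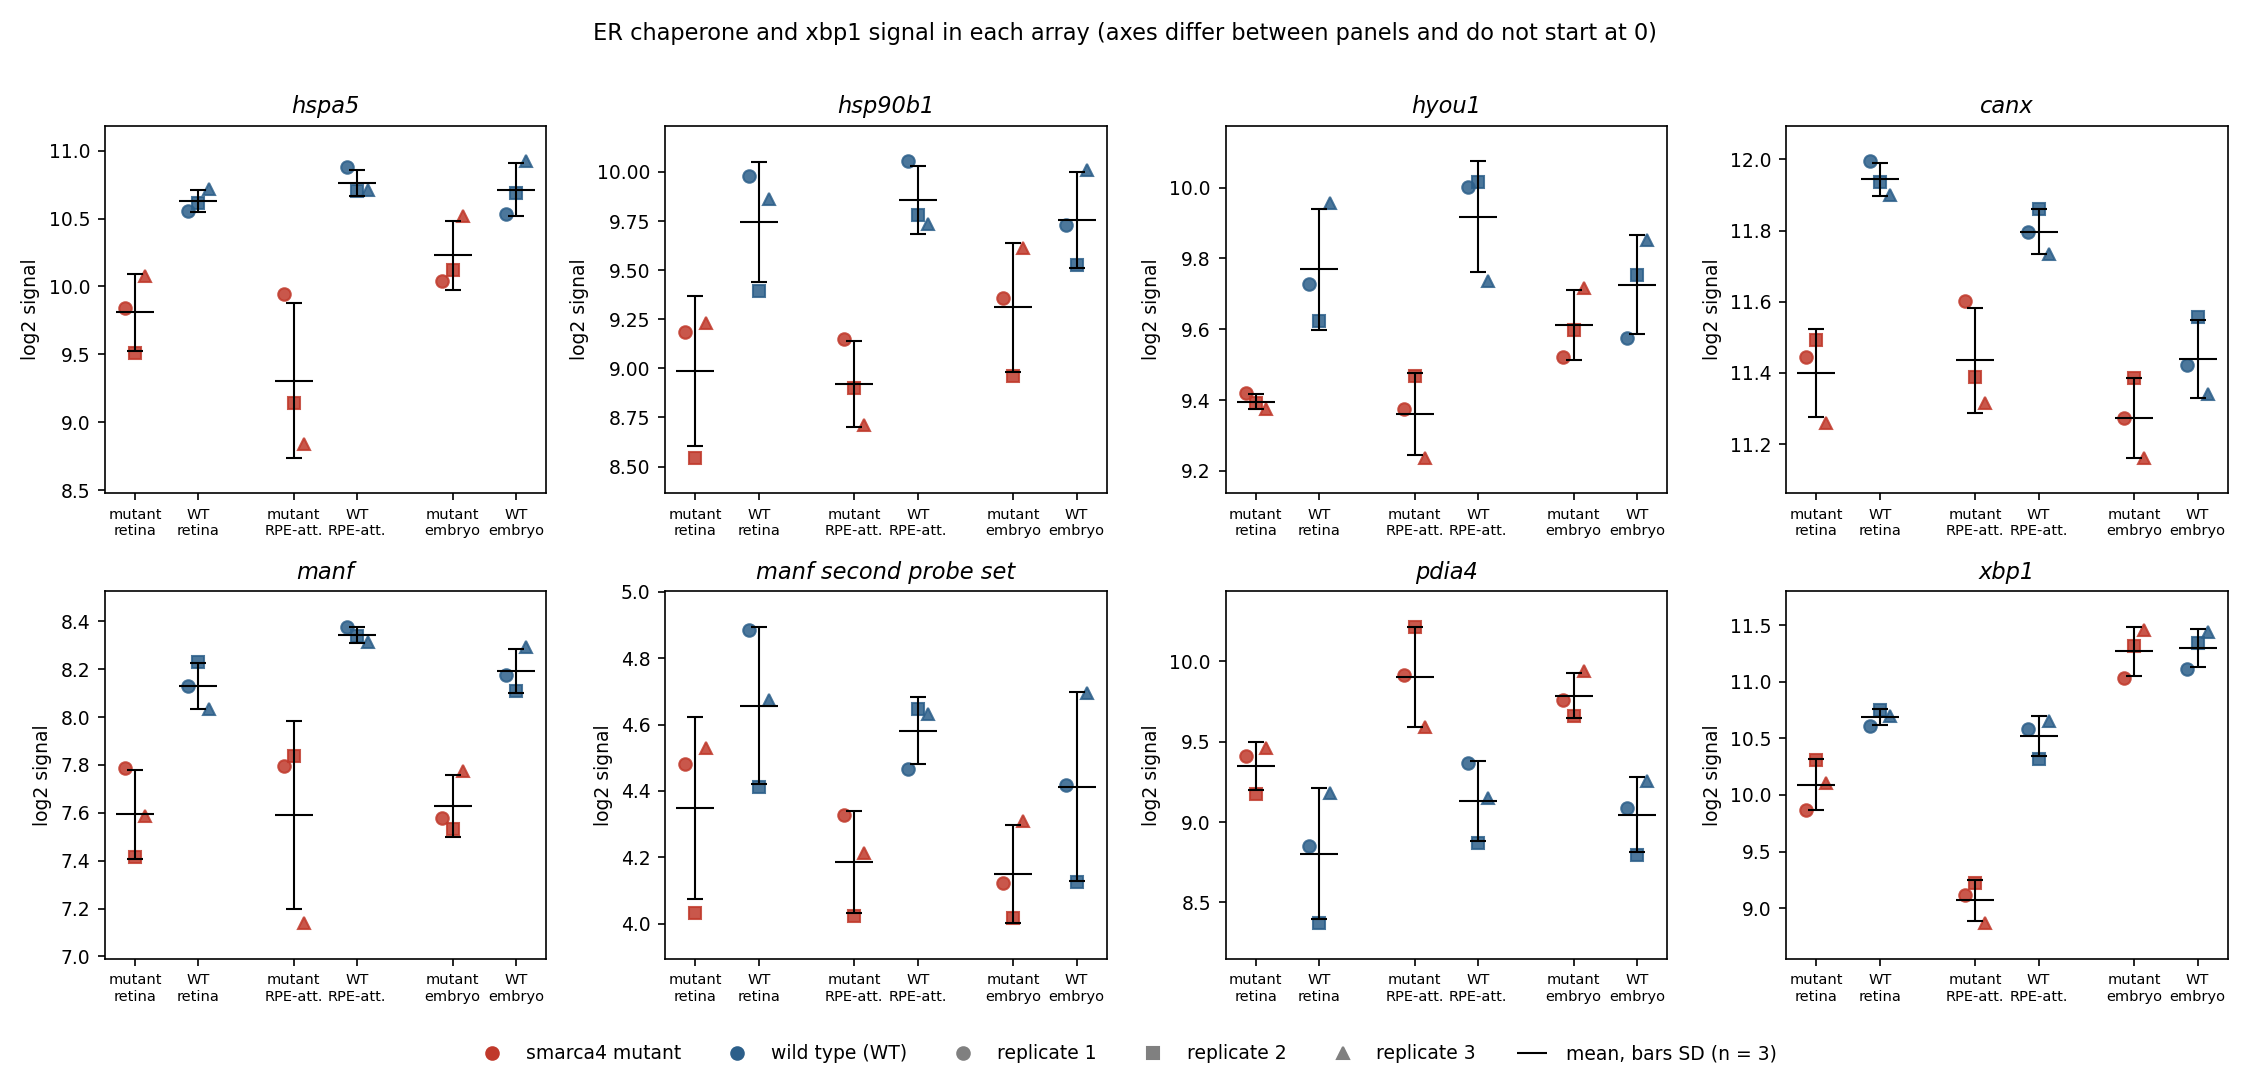
Log2 signal (vertical axis) of the 8 probe sets in each of the 18 arrays, by group along the horizontal axis, with mutants in red beside wild type in blue, marker shape for replicate number, and black bars for mean ± SD (n = 3). xbp1 in the mutant RPE-attached arrays lies at 8.87 to 9.22, below every other group, while in embryos the genotypes overlap.

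In retina and in RPE-attached retina, hspa5 had the largest difference in size of the 7 genes, while in embryos those of pdia4 and manf were larger. Its signal was 9.84, 9.51 and 10.08 in the 3 mutant retinas, against 10.55, 10.61 and 10.72 in wild type retinas. In RPE-attached retina it was 9.94, 9.14 and 8.84 in mutants, against 10.88, 10.70 and 10.71 in wild type. Every mutant array of these tissues lay below every wild type array, and the mutant RPE-attached pools were spread widest (SD 0.57, against 0.08 to 0.28 in the other groups). Mutant embryos gave 10.04, 10.12 and 10.52 for hspa5, against 10.53, 10.68 and 10.92 in wild type embryos, so the groups touched without overlapping. The differences were -0.82 ± 0.21 in retina (1.76-fold lower), -1.46 ± 0.21 in RPE-attached retina (2.74-fold lower) and -0.48 ± 0.21 in embryos (1.40-fold lower). Wild type levels of hspa5 overlapped among the 3 tissues.

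The ER HSP90 gene hsp90b1 had a like pattern. It measured 9.19, 8.54 and 9.23 in mutant retinas, against 9.98, 9.40 and 9.86 in wild type retinas. In RPE-attached retina it measured 9.15, 8.90 and 8.71 in mutants, against 10.05, 9.78 and 9.73 in wild type. The genotypes did not overlap in either tissue. Mutant embryos had 9.36, 8.96 and 9.61 for hsp90b1, against 9.73, 9.53 and 10.01 in wild type embryos, and these ranges overlapped. Its difference was -0.76 ± 0.20 in retina (1.69-fold lower), -0.94 ± 0.20 with RPE attached (1.91-fold lower) and -0.44 ± 0.20 in embryos (1.36-fold lower). Replicate 2 was the lowest array of hsp90b1 in all 4 embryo and retina groups, and within each number the mutant was below the wild type.

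For hyou1, the exchange factor of BiP, mutant retinas had 9.42, 9.39 and 9.38, against 9.73, 9.62 and 9.96 in wild type retinas. Mutant RPE-attached retinas had 9.38, 9.47 and 9.24, against 9.74 to 10.01 in the 3 wild type arrays. The mutants were lower in both without overlap. Embryos gave 9.52, 9.60 and 9.72 in mutants, against 9.57, 9.75 and 9.85 in wild type, and overlapped. Its difference was -0.37 ± 0.11 in bare retina, -0.56 ± 0.11 with the RPE attached (1.47-fold lower) and -0.11 ± 0.11 in embryos.

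canx, the membrane lectin, differed most between genotypes in bare retina. Its signal was 11.45, 11.49 and 11.26 in mutant retinas, against 11.99, 11.94 and 11.90 in wild type retinas. In RPE-attached retina it was 11.60, 11.39 and 11.32 in mutants, against 11.80, 11.86 and 11.73 in wild type. Again no array of 1 genotype reached into the other. Mutant embryos had 11.27, 11.38 and 11.16 for canx, against 11.42, 11.56 and 11.34 in wild type embryos, with overlap. The differences were -0.54 ± 0.10 (1.46-fold lower) in retina, -0.36 ± 0.10 (1.28-fold lower) in RPE-attached retina and -0.17 ± 0.10 (1.12-fold lower) in embryos. canx was also higher in wild type retina than in wild type embryos by 0.50 ± 0.10, with separate ranges.

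Among the 7 genes, manf was the 1 gene with a lower signal in mutants and nearly equal differences in retina and embryo. Mutant retinas had 7.79, 7.41 and 7.58, against 8.13, 8.23 and 8.03 in wild type retinas. Mutant RPE-attached retinas had 7.80, 7.84 and 7.14, against 8.38, 8.34 and 8.31 in wild type, and replicate 3 of the mutants stood well below the other two. In embryos manf was 7.58, 7.53 and 7.77 in mutants, against 8.18, 8.11 and 8.29 in wild type. The genotypes did not overlap in any of the tissues. The differences were -0.54 ± 0.15 (1.45-fold lower) in retina, -0.75 ± 0.15 (1.68-fold lower) in RPE-attached retina and -0.56 ± 0.15 (1.48-fold lower) in embryos. Taken as retina minus embryos, the genotype difference was 0.03 ± 0.21 for manf, -0.33 ± 0.29 for hspa5 and -0.31 ± 0.28 for hsp90b1. It was -0.26 ± 0.16 for hyou1, -0.38 ± 0.14 for canx, -0.57 ± 0.20 for xbp1 and -0.19 ± 0.26 for pdia4. None of the 7 genes was called for it, where 2.8% of all genes were called higher and 4.42% lower. The other manf probe set lay between 4.02 and 4.89 on every array, under 5.15, the 30th percentile of all group means. Its differences had the same sign (-0.31 ± 0.16, -0.39 ± 0.16 and -0.26 ± 0.16 in bare retina, RPE-attached retina and embryo), and no fold is given at so dim a signal.

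pdia4, the disulfide isomerase, went the other way. It measured 9.41, 9.18 and 9.46 in mutant retinas, against 8.85, 8.37 and 9.18 in wild type retinas. The lowest mutant array there lay just under the highest wild type array, so the genotypes overlapped. In RPE-attached retina pdia4 measured 9.91, 10.21 and 9.59 in mutants, against 9.36, 8.87 and 9.15 in wild type. Mutant embryos had 9.76, 9.66 and 9.94, against 9.09, 8.80 and 9.26 in wild type embryos. Every mutant array was above every wild type array in RPE-attached retina and in embryos. The differences were 0.55 ± 0.19 (1.46-fold higher) in retina, 0.77 ± 0.19 (1.71-fold higher) in RPE-attached retina and 0.74 ± 0.19 (1.67-fold higher) in embryos. Replicate 2 was the lowest and replicate 3 the highest array of pdia4 in all 4 embryo and retina groups.

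The transcription factor gene xbp1 had the widest range of group means among the 7 genes, 9.07 to 11.30. Its signal was 9.86, 10.31 and 10.10 in mutant retinas, against 10.61, 10.75 and 10.70 in wild type retinas. In RPE-attached retina it was 9.12, 9.22 and 8.87 in mutants, against 10.58, 10.32 and 10.66 in wild type. In both the mutants were lower with a clear gap. Mutant embryos had 11.03, 11.32 and 11.46 for xbp1, against 11.11, 11.34 and 11.44 in wild type embryos, and these arrays interleaved. The differences were -0.59 ± 0.14 (1.51-fold lower) in retina, -1.45 ± 0.14 (2.73-fold lower) in RPE-attached retina and -0.03 ± 0.14 in embryos. The genotype difference in RPE-attached retina minus that in retina was -0.86 ± 0.20 for xbp1, against -0.64 ± 0.29 for hspa5 and -0.22 to 0.23 for the other genes. In wild type fish, xbp1 was lower in retina than in embryos by a difference of -0.61 ± 0.14, with no overlap.

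**Figure D2:**
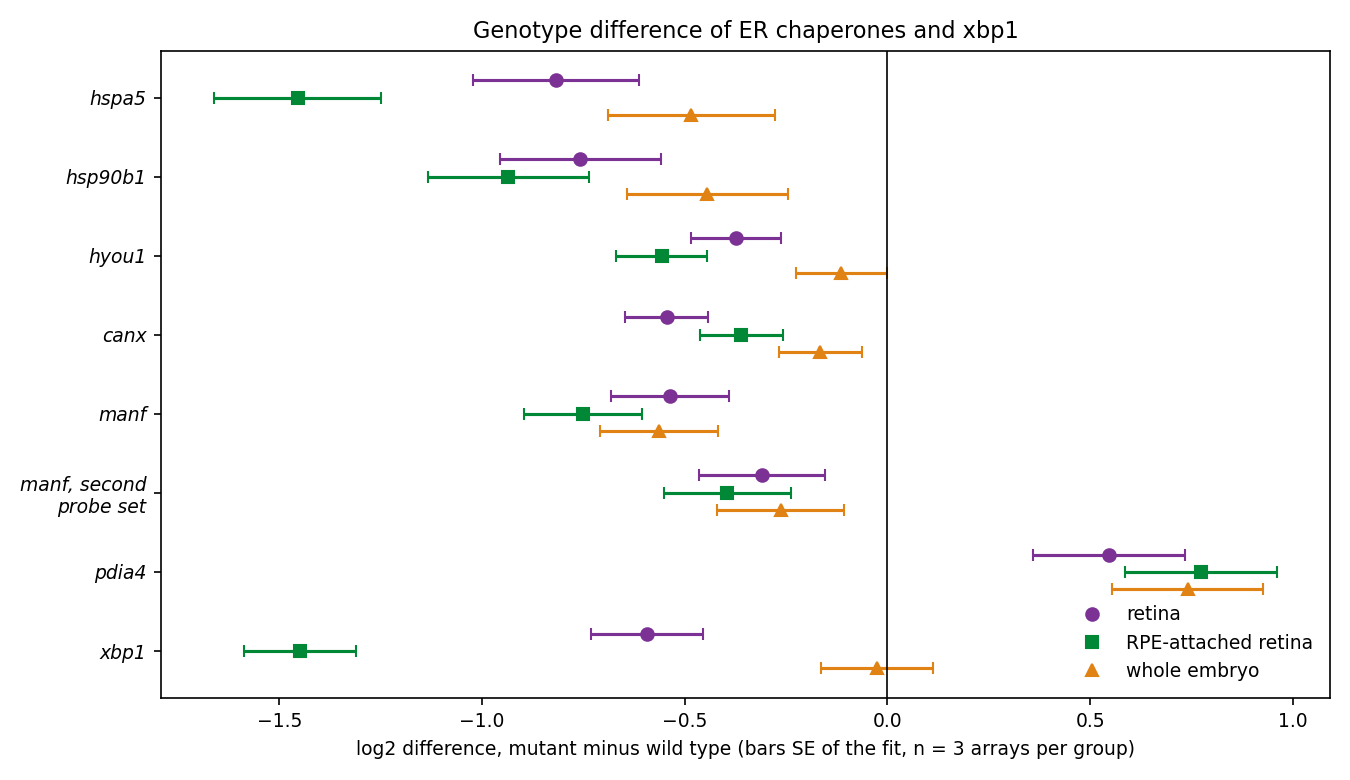
Log2 difference of mutant minus wild type (horizontal axis) for the 8 probe sets (vertical axis) in bare retina, RPE-attached retina and whole embryo; bars are the SE of the fit (n = 3 arrays per group). All probe sets but that of pdia4 lie left of 0, and xbp1 spans the widest range between tissues, from -1.45 in RPE-attached retina to -0.03 in embryos.

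The order of group means differed from gene to gene. For hspa5, hsp90b1, manf and hyou1 the 3 wild type groups were the highest and the 3 mutant groups the lowest, with mutant embryos the highest of the mutants. Neighbouring groups in these orders mostly overlapped. In hspa5 the gap between the lowest wild type group, retina (10.63), and the highest mutant group, embryo (10.23), was without overlap. For xbp1 the order was set first by tissue: embryos of both genotypes came first at 11.30 in wild type and 11.27 in mutants, wild type retina and RPE-attached retina followed at 10.69 and 10.52 and overlapped, and mutant retina (10.09) and mutant RPE-attached retina (9.07) stood apart at the low end. For pdia4 the mutant RPE-attached retina (9.90) and mutant embryo (9.79) overlapped at the top. Between wild type RPE-attached and wild type bare retina, the differences of the 8 probe sets lay between -0.17 and 0.33.

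The calls of the members are given beside the share called over the array, and nothing is read from them, since the list was chosen on such differences. In retina 1 of the 8 probe sets was called higher and 6 lower in mutants, where 8.88% of all probe sets were called higher and 9.41% lower. The counts were 1 and 7 in RPE-attached retina, beside 26.7% higher and 20.2% lower, and 1 (pdia4) and 1 (manf) in embryos, beside 3.39% and 3.34%. Arrays of the genotypes did not overlap for 6 lower probe sets in retina (14.7% of all), for 1 higher and 7 lower in RPE-attached retina (29.4% and 21.9% of all) and for 1 higher and 2 lower in embryos (10.3% and 10.4% of all). The median difference of the 7 genes was -0.54 in retina, against 0.04 over all genes. It was -0.75 in RPE-attached retina (0.06 over all genes) and -0.17 in embryos (-0.004 over all genes). In a fit of the embryo and retina arrays alone, blocked by replicate number, 1 probe set was called higher and 7 lower in retina (16.1% and 14.9% of all), and 1 and 3 in embryos, where hspa5 and hsp90b1 joined manf (8.5% and 7.79% of all).

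Several other measures moved with these groups. smarca4a was lower in mutants of every tissue (-2.26, -1.64 and -2.43 in bare retina, RPE-attached retina and embryo for its brighter probe set). Retinal neuron markers, 16 of 22 measured, had a summed signal of 13.3 to 13.6 in mutant retinas, against 14.2 to 14.4 in wild type retinas, and of 13.0 to 13.4 in mutant RPE-attached retinas, against 13.8 to 14.0 in wild type. In these sums, the 5 lens markers measured of 15 reached 8.50 to 10.70 in mutant retinas, with replicates 1 and 2 high, against 7.90 to 8.01 in wild type retinas. Leaving out both of those arrays left 1 mutant retina array, replicate 3, and hspa5 was then at -0.55 and canx at -0.68 in retina. Replicate 3 was the highest array of hspa5 in all 4 embryo and retina groups. Against wild type retina of the same number, hspa5 in mutant replicate 3 differed by -0.64. In RPE-attached retina, the summed vessel markers (5 of 13) were at 9.31 to 9.39 in mutants, against 8.63 to 8.71 in wild type, and the neural crest and pigment cell markers (7 of 12) at 10.5 to 10.6, against 9.93 to 10.1. The 10 RPE and melanophore markers measured of 17 reached 11.9 to 12.2 in mutant RPE-attached retinas, against 11.4 to 11.8 in wild type, and 9.50 to 9.89 in mutant bare retinas, against 9.27 to 9.48 in wild type. The 13 mesenchyme and cartilage markers of 23 were at 10.57 to 10.94 in mutant RPE-attached retinas, against 10.02 to 10.54 in wild type. In bare retina, the vessel markers were at 7.71 to 7.95 in mutants, against 7.99 to 8.16 in wild type, and the 2 hatching gland markers measured of 12 at 9.71 to 10.08, against 9.12 to 9.42. Of those 2, agr2 averaged only 5.59 in mutant and 5.44 in wild type bare retinas. The hatching gland sum there is thus mostly the signal of 1 other gene. In embryos the neuron markers summed to 12.6 to 12.8 in mutants, against 12.9 to 13.2 in wild type, and the vessel markers to 9.63 to 9.69, against 9.73 to 9.83. Mesenchyme and cartilage markers reached 14.03 to 14.21 in mutant embryos, against 14.25 to 14.36 in wild type embryos, and neural crest and pigment cell markers 9.75 to 10.11, against 10.18 to 10.36. Sums of blood (11 of 14) and of liver, pancreas and yolk markers (14 of 18) overlapped between genotypes in all 3 tissues, and those of the hatching gland in RPE-attached retina and in embryos. Each sum adds linear signals, so its brightest markers weigh most. Of the 11 blood markers, 1 rose and 0 fell in retina by limma, 4 and 2 in RPE-attached retina, and 3 and 0 in embryos. Of the 14 liver, pancreas and yolk markers these counts were 0 and 3, 1 and 1, and 0 and 3. For the 7 neural crest and pigment cell markers they were 0 and 1, 1 and 1, and 0 and 1. The 16 neuron markers had 0 and 12, 2 and 11, and 0 and 6. The 5 vessel markers had 0 and 1, 2 and 0, and 0 and 0. The 13 mesenchyme and cartilage markers had 1 and 0, 6 and 0, and 0 and 3. The 10 RPE and melanophore markers had 1 and 0, 5 and 0, and 0 and 0. The 5 lens markers had 3 and 0, 0 and 0, and 0 and 1. Of all genes, 10.1% rose and 9.5% fell in retina, 28.2% and 21.3% in RPE-attached retina, and 3.73% and 3.66% in embryos. As a measure of RNA quality, the 3′ minus the 5′ signal of the GAPDH controls was 2.68 to 2.92 in mutant retinas, against 2.93 to 3.18 in wild type retinas. It was 2.55 to 2.61 in mutant RPE-attached retinas, against 2.68 to 3.03 in wild type. In embryos it overlapped, at 3.12 to 3.29 in mutants and 3.12 to 3.47 in wild type. The same measure for acta1 overlapped between genotypes in every tissue. Its group means were 0.36 to 0.99 in bare and RPE-attached retina and 8.16 to 8.19 in embryos, so acta1 varied far more by tissue than GAPDH. The part of these cell types and of RNA quality in the chaperone differences was not tested. The hybridization controls averaged 11.33 ± 0.12 in mutant RPE-attached arrays, against 9.66 ± 0.09 in wild type RPE-attached arrays (SD, n = 3), and 9.77 to 9.97 in the other groups. In RPE-attached retina, genotype and what set these controls apart cannot be told apart.

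Other ER genes were taken from lists of chaperones, disulfide isomerases, unfolded protein response regulators, ER-associated degradation, translocation with N-glycosylation, and ER to Golgi transport. These lists, too, were chosen with earlier results of these data known, so their counts beside the share of all genes are a description. Of 247 entries 151 were measured, the 7 genes left out. In retina 1 of the 151 rose and 13 fell in mutants by limma (0.662% and 8.61%, against 10.1% and 9.5% of all genes), with a median difference of -0.06. In RPE-attached retina 39 rose and 39 fell (25.8% each, against 28.2% and 21.3%), with a median of 0.01. In embryos 3 rose and 4 fell (1.99% and 2.65%, against 3.73% and 3.66%), with a median of -0.07. In the blocked fit of embryo and retina arrays, 9 rose and 34 fell in retina (5.96% and 22.5%, against 17.7% and 15.8% of all genes), and 6 rose and 21 fell in embryos (3.97% and 13.9%, against 8.98% and 8.54%). For the genotype difference with RPE attached minus that in bare retina, 24 of the 151 genes were called higher and 21 lower (15.9% and 13.9%, against 12.5% and 9.34% of all genes). For the difference in retina minus that in embryos, 2 were called higher and 1 lower (1.32% and 0.662%, against 2.8% and 4.42%).

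**Figure D3:**
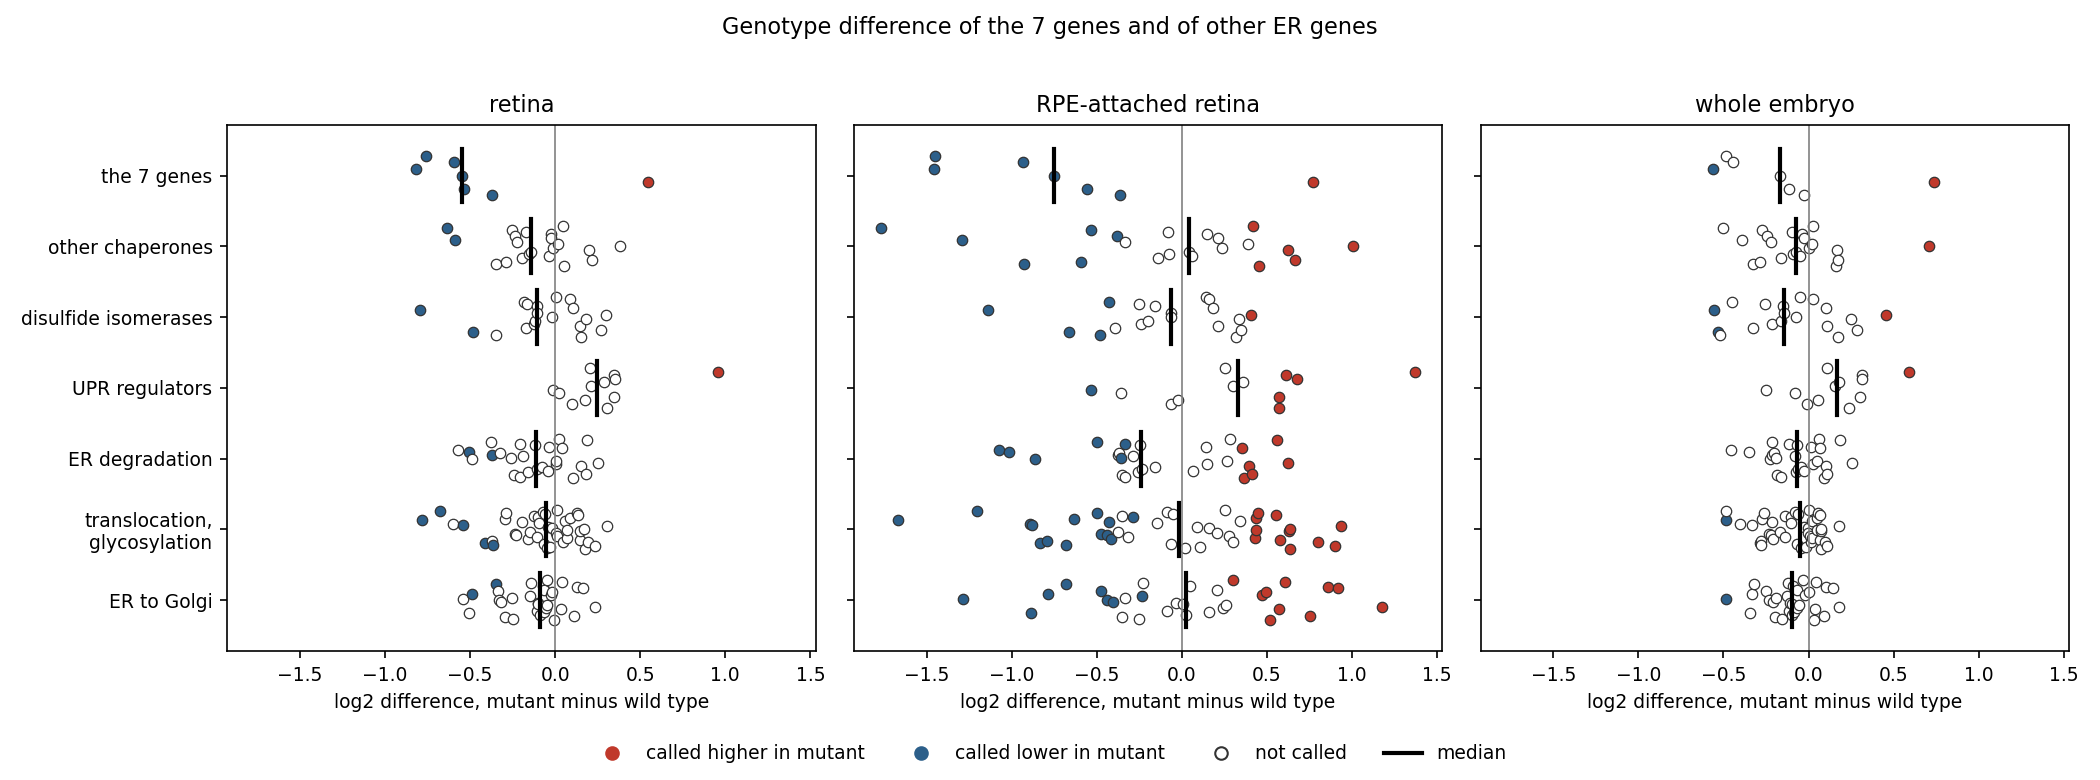
Log2 difference of mutant minus wild type (horizontal axis) for the 7 genes and for the genes of 6 ER lists (vertical axis) in bare retina, RPE-attached retina and whole embryo; filled points were called, open points were not, and black bars are medians. The unfolded protein response regulators, which leave out xbp1, have medians of 0.25, 0.33 and 0.17 in these tissues. The medians of the other 5 lists lie between -0.24 and 0.04.

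Of 21 other ER chaperones measured, 0 rose and 2 fell in retina (10.1% and 9.5% of all genes). In RPE-attached retina 5 rose and 6 fell (28.2% and 21.3% of all genes). In embryos 1 rose and 0 fell (3.73% and 3.66% of all genes). At an unadjusted limma p under 0.05, 0 and 3 passed in retina (15.5% and 13.8% of all genes). In embryos 1 and 3 passed (9.25% and 8.8% of all genes). The fit with the replicate block called 0 higher and 5 lower in retina (17.7% and 15.8% of all genes), and 1 and 3 in embryos (8.98% and 8.54%). The calreticulins are soluble partners of calnexin. calr3a fell in retina (-0.59 ± 0.14, limma adjusted p = 0.00366), with 9.85, 9.54 and 10.19 in mutants, against 10.52, 10.27 and 10.55 in wild type. calr3b fell in RPE-attached retina by 3.41-fold (-1.77 ± 0.15, limma adjusted p = 1.76e-08), with 5.62, 5.76 and 5.37 in mutants, against 7.31, 7.42 and 7.33 in wild type. The brighter calr probe set fell in RPE-attached retina (-1.29 ± 0.11, limma adjusted p = 3.08e-08) and rose in embryos (0.71 ± 0.11, limma adjusted p = 0.000372). The other calr probe set was not called in any tissue, at -0.32, -0.53 and 0.10 in bare retina, RPE-attached retina and embryo. ppib, an ER prolyl isomerase, fell in RPE-attached retina (-0.92 ± 0.22) and in retina (-0.64 ± 0.22, limma adjusted p = 0.0463), a call lost in 7 of 14 alternatives. dnajc3a, a co-chaperone of BiP, fell in RPE-attached retina (-0.54 ± 0.11), while dnajc1, another J-domain protein of the ER, rose there (1.01 ± 0.19).

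Of 19 other disulfide isomerases and oxidases, 0 rose and 2 fell in retina (10.1% and 9.5% of all genes). In RPE-attached retina 1 rose and 4 fell (28.2% and 21.3% of all genes). In embryos 1 rose and 2 fell (3.73% and 3.66% of all genes). At an unadjusted limma p under 0.05, 1 and 2 passed in retina (15.5% and 13.8% of all genes). The fit with the replicate block called 2 higher and 3 lower in retina (17.7% and 15.8% of all genes), and 2 and 4 in embryos (8.98% and 8.54%). pdia3, the partner of calnexin and calreticulin, was at 7.29, 6.83 and 7.33 in mutant retinas, against 7.95, 7.80 and 8.08 in wild type retinas (-0.79 ± 0.17, limma adjusted p = 0.00172). In RPE-attached retina its mean was 8.40 in mutants and 8.06 in wild type, and the genotype difference there minus that in retina was 1.13 ± 0.24 (limma adjusted p = 0.00274). selenot1a fell in retina (-0.48 ± 0.10) and RPE-attached retina (-0.43 ± 0.10), and selenot1b fell in RPE-attached retina (-1.14 ± 0.12). These encode selenoproteins of the ER. pdia5 (-0.48 ± 0.13 for its brightest probe set) and pdia6 (-0.66 ± 0.26) fell in RPE-attached retina, while pdia2 (0.21), pdia3 (0.34) and pdia7 (0.14) were not called there. The other pdia5 probe sets were not called there either (-0.19 and 0.09). In embryos the oxidase gene qsox1 rose (0.46 ± 0.12), and selenom (-0.53 ± 0.12) and agr2 (-0.56 ± 0.14) fell, calls lost in 4, 3 and 3 of 13 alternatives. The 1 gene of this list called higher in RPE-attached retina was selenom, with means of 7.78 in mutants and 7.37 in wild type. agr2 also stands in the hatching gland list.

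Regulators of the unfolded protein response had 12 genes measured. Of these 1 rose and 0 fell in retina (8.33% higher, against 10.1% of all genes, and 9.5% of all genes lower). In RPE-attached retina 5 rose and 1 fell (41.7% and 8.33%, against 28.2% and 21.3% of all genes). In embryos 1 rose and 0 fell (8.33% higher, against 3.73% of all genes, and 3.66% of all genes lower). At an unadjusted limma p under 0.05, 4 higher and 0 lower passed in retina (15.5% and 13.8% of all genes), and 3 and 0 in embryos (9.25% and 8.8%). With the replicate block, 5 rose and 0 fell in retina (17.7% and 15.8% of all genes), and 3 and 0 in embryos (8.98% and 8.54%). Their median differences were 0.25, 0.33 and 0.17 in bare retina, RPE-attached retina and embryo. These 12 leave out xbp1, itself part of the response, which was at -0.59, -1.45 and -0.03 in the same order. The median of the 7 genes was below 0, but those genes were chosen with genotype differences in view.

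chac1 encodes a glutathione-degrading enzyme induced through ATF4 in mammals. It had 10.92, 11.52 and 11.26 in mutant retinas, against 10.18, 10.25 and 10.40 in wild type retinas, a rise of 1.94-fold (0.96 ± 0.13, limma adjusted p = 1.02e-05). This probe set was not called in RPE-attached retina (0.25 ± 0.13) or in embryos (-0.01 ± 0.13), and its difference in retina exceeded that in embryos by 0.97 ± 0.18 (limma adjusted p = 0.00118). The other chac1 probe set, whose mean signal of 3.51 was under 5.15, was called higher in RPE-attached retina (0.37) and not in retina (0.08) or embryos (0.07).

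eif2ak3, which encodes the sensor PERK, rose in RPE-attached retina, with 8.96, 9.32 and 9.13 in mutants, against 8.49, 8.47 and 8.42 in wild type (0.68 ± 0.13, limma adjusted p = 0.000374). Of its dimmer probe sets, 1 was not called (-0.06) and the dimmest was called lower (-0.29). atf4b (0.57 ± 0.15), a factor translated when PERK is active, and ppp1r15a (0.57 ± 0.14), a phosphatase subunit that ends that state, rose in RPE-attached retina as well. Of the other 3 ppp1r15a probe sets none was called there, at -0.02, -0.05 and 0.01, the last with a mean signal of 7.04 against 7.87 for the brightest. creb3l2 (1.37 ± 0.31) and creb3l3l (0.61 ± 0.13), genes of membrane-bound factors related to ATF6, rose there, and creb3l3l rose in embryos (0.59 ± 0.13). mbtps1, which encodes the site-1 protease that cleaves ATF6, fell in RPE-attached retina (-0.53 ± 0.09, limma adjusted p = 0.000105), with 9.20, 9.22 and 9.07 in mutants, against 9.71, 9.60 and 9.78 in wild type.

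Of 26 genes of ER-associated degradation, 0 rose and 2 fell in retina by limma (10.1% and 9.5% of all genes). In RPE-attached retina 6 rose and 6 fell (28.2% and 21.3% of all genes). In embryos 0 rose and 0 fell (3.73% and 3.66% of all genes). At an unadjusted limma p under 0.05, 1 higher and 4 lower passed in retina (15.5% and 13.8% of all genes). In embryos 1 and 1 passed (9.25% and 8.8% of all genes). The fit with the replicate block called 1 higher and 7 lower in retina (17.7% and 15.8% of all genes), and 0 and 2 in embryos (8.98% and 8.54%). The lectin gene os9, whose product recognises misfolded glycoproteins, fell in retina (-0.51 ± 0.11) and RPE-attached retina (-0.86 ± 0.11). Its dimmer probe set, with a mean signal of 5.77, was called lower in RPE-attached retina (-0.71) and not called in retina (-0.17). ube2g2, a ubiquitin-conjugating enzyme, fell by 2.03-fold in RPE-attached retina (-1.02 ± 0.13, limma adjusted p = 2.18e-06) and ufd1l, a cofactor of the p97 ATPase, by 2.11-fold (-1.08 ± 0.16). Others rose there, such as sel1l (0.56 ± 0.11), the scaffold of a ubiquitin ligase, and ngly1 (0.63 ± 0.12), a deglycosylating enzyme.

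Translocation and N-glycosylation had 42 genes measured, of which 0 rose and 5 fell in retina (10.1% and 9.5% of all genes). In RPE-attached retina 12 rose and 14 fell (28.2% and 21.3% of all genes). In embryos 0 rose and 1 fell (3.73% and 3.66% of all genes). At an unadjusted limma p under 0.05, 2 higher and 7 lower passed in retina (15.5% and 13.8% of all genes). In embryos 0 and 6 passed (9.25% and 8.8% of all genes). The fit with the replicate block called 1 higher and 9 lower in retina (17.7% and 15.8% of all genes), and 0 and 7 in embryos (8.98% and 8.54%). krtcap2, a subunit of the oligosaccharyltransferase, fell in every tissue. It had 9.45, 9.11 and 9.39 in mutant retinas, against 10.14, 10 and 10.16 in wild type retinas (-0.78 ± 0.12, limma adjusted p = 4.17e-05). The krtcap2 difference was -1.20 ± 0.12 in RPE-attached retina and -0.49 ± 0.12 in embryos (limma adjusted p = 1.05e-07 and 0.0126). Other subunits of that enzyme differed in direction. ost4 fell in retina (-0.36 ± 0.11) and RPE-attached retina (-0.89 ± 0.11), whereas its catalytic subunit stt3a fell in retina (-0.54 ± 0.15) and rose in RPE-attached retina (0.63 ± 0.15). The retina calls of ost4 and stt3a were lost in 5 and 4 of 14 alternatives. sec61g, a subunit of the translocation channel, fell by 3.18-fold in RPE-attached retina, with 8.92, 8.60 and 8.70 in mutants, against 10.47, 10.52 and 10.25 in wild type (-1.67 ± 0.17, limma adjusted p = 2.28e-07). The signal recognition particle genes srp72 (0.90 ± 0.11) and srp54 (0.80 ± 0.12) rose there.

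Of 31 genes of ER to Golgi transport, 0 rose and 2 fell in retina (10.1% and 9.5% of all genes). In RPE-attached retina 10 rose and 8 fell (28.2% and 21.3% of all genes). In embryos 0 rose and 1 fell (3.73% and 3.66% of all genes). At an unadjusted limma p under 0.05, 0 higher and 10 lower passed in retina (15.5% and 13.8% of all genes). In embryos 0 and 5 passed (9.25% and 8.8% of all genes). The fit with the replicate block called 0 higher and 10 lower in retina (17.7% and 15.8% of all genes), and 0 and 5 in embryos (8.98% and 8.54%). lman1, a lectin that carries glycoproteins out of the ER, fell in retina (-0.49 ± 0.13), RPE-attached retina (-0.68 ± 0.13) and embryos (-0.48 ± 0.13), calls lost in 3 of 14 alternatives in retina and 5 of 13 in embryos. The COPII coat gene sec24b fell in retina (-0.35 ± 0.10, lost in 4 of 14 alternatives) and RPE-attached retina (-0.40 ± 0.10), while its relative sec24c rose in RPE-attached retina (1.18 ± 0.20).

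The group means of each gene were then centred on the mean of its 6 groups, and likeness to hspa5 was measured as the root mean square difference over the 6 means. The median over all genes was 0.668. hsp90b1 was at 0.195, with 19 of 8786 other genes nearer to hspa5. manf (0.299), hyou1 (0.350), canx (0.453) and xbp1 (0.457) had 123, 257, 731 and 749 genes nearer, and pdia4 (0.878) had 7064. The nearest gene of all was krtcap2 (0.101). After it came atp5mc1 (0.114) and atp5if1a (0.116), genes of mitochondrial ATP synthase and its inhibitor, and atp6v1g1 (0.115), a subunit of the vacuolar proton pump. Then followed tollip, midn, kif5aa, tcima and diras1a (0.144 to 0.174), and the tenth was cox6b1 (0.183), of cytochrome c oxidase. The gene nearest to the mean of the 7 genes was ssr4 (0.0516), a subunit of the translocon-associated protein complex in the ER membrane. Next were dnajc18, mdh1aa, cox8a, cox6a1, uso1, ndufc2, snx3, ap2m1a and tmem167a, at 0.0715 to 0.0909. The 6 points share their arrays and pools. The 7 genes were also chosen with genotype differences of these arrays in view, so likeness is a description.

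**Figure D4:**
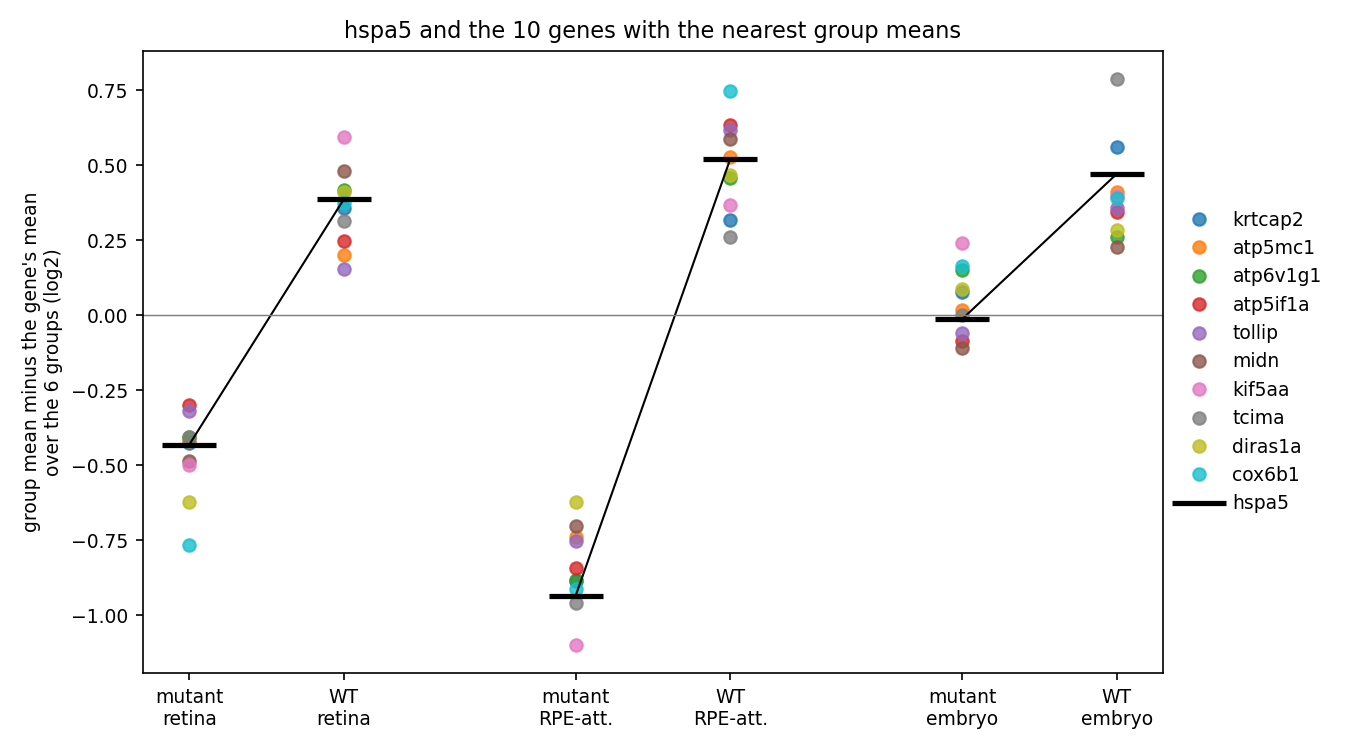
Group mean minus the mean of the gene's 6 groups (vertical axis, log2) for hspa5 (black bars, joined within a tissue) and the 10 genes nearest to it (coloured points), in the 6 groups along the horizontal axis. All lie below 0 in mutant retina and mutant RPE-attached retina and above 0 in the wild type groups.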

How the data were processed

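RNA of 18 pools, in 6 groups of 3, was measured on Affymetrix zebrafish arrays. The deposited values are log2 signals that the authors made with the robust multiarray average, per the series' design text. The submitters' processing notes name RMA, affy and R 2.2.0. The raw scans were not analysed here, and the number of arrays limits the precision.

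Groups and replicate numbers came from the sample titles. Of 15617 probe sets, 115 controls were left out and 15502 tested. Of these, 10795 had 1 symbol in the platform annotation, 135 had several and 4572 had none, giving 8793 genes, each represented by its brightest probe set. The 6 group means were fitted with limma 3.58.1 (R 4.3.3), variances were moderated with eBayes, and p-values were adjusted by Benjamini-Hochberg over every probe set tested. The fit was checked on simulated data. Python 3.11.15 with matplotlib 3.10.9 drew the plots.

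The 7 genes and the gene lists were chosen with earlier results of these data known. Named list genes were taken from up to 4 with the smallest p per list and genotype comparison and up to 2 in the other comparisons. sel1l, pdia2, pdia6, pdia7, srp54, hspa8 and cct2 fall outside this rule and were named after their values were seen. The 10 genes nearest to hspa5 and to the mean of the 7 genes were named by likeness of group means. Fold is a ratio above 1, given where the lower mean was at least 5.15.

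The labels do not say that replicate numbers pair pools. Across probe sets, same-numbered arrays deviated together in all 6 pairs of embryo and retina groups (correlations of 0.29 to 0.60) and not in 9 pairs with an RPE-attached group (-0.20 to 0.16), so a fit of these 12 arrays blocked by replicate number is given beside the counts it changed. Other alternatives were the 0.001 threshold of the series design, quantile normalization again, subtraction of array medians, a filter on dim probe sets, array weights, the compared groups alone, a block over all arrays, the probe set with the smallest p, and leaving out arrays. Protein and promoter sequences were not analysed here.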

Additional observations from a re-analysis of the deposited data

Results flagged for a closer look

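The genotype difference of some genes itself differed between tissues by the limma interaction term, where 12.5% of all genes were called higher and 9.34% lower in RPE-attached retina minus retina. Of the ER lists, 24 of 151 genes were called higher and 21 lower there. Lower values in RPE-attached retina than in retina were measured for calr (-1.51 ± 0.16), calr3b (-1.53 ± 0.21), sec61g (-1.60 ± 0.24), ube2g2 (-1.02 ± 0.18), selenot1b (-1.01 ± 0.16), lman2la (-0.74 ± 0.17), chac1 (-0.70 ± 0.18), derl1 (-0.68 ± 0.15) and mbtps1 (-0.63 ± 0.13). Higher values were measured for stt3a (1.17 ± 0.21), pdia3 (1.13 ± 0.24) and sar1b (0.94 ± 0.17). The other calr probe set, with a mean signal of 7.63 against 9.53, was at only -0.21 for this difference. The dim chac1 probe set, with a mean signal of 3.51, had the opposite sign (0.29). For xbp1 the same difference was -0.86 ± 0.20, given as a description since the gene was chosen with such values known.

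Between retina and whole embryo, the genotype difference was higher in retina for chac1 (0.97 ± 0.18) and agr2 (0.71 ± 0.20), and lower for derl2 (-0.63 ± 0.16), the 3 ER list genes called there by limma, where 2.8% of all genes were called higher and 4.42% lower. For the other probe set of derl2, with a mean signal of 6.65 against 7.19, this difference was -0.10, and for the dim probe set of chac1 it was 0.005. The derl2 call in retina was lost in 4 of 14 alternatives. agr2 was dim in retina, with means of 5.59 in mutants and 5.44 in wild type, near 5.15. In embryos its means were 9.14 in mutants and 9.70 in wild type, so its value stems mostly from the difference in embryos. The difference of retina minus embryo and that of RPE-attached retina minus retina share the retina arrays.

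Among control probe sets, which no comparison uses, the hybridization controls averaged 11.33 in mutant RPE-attached arrays, above the other groups. The poly-A controls averaged 4.70 ± 0.15 there, against 5.78 ± 0.05 in wild type RPE-attached arrays (SD, n = 3), and 4.78 to 5.11 in the other groups, so for these the wild type RPE-attached arrays stood farther from the rest. Their part in the genotype differences of RPE-attached retina was not tested.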

How the results depend on the processing

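The 24 genotype differences of the member probe sets were recomputed in 309 alternatives, of which 307 moved them by less than the spread between replicates. The other 2 were hspa5 (-0.55) and canx (-0.68) in retina without both lens-high mutant retina arrays. That setting was chosen after seeing the data and left 1 mutant retina array, replicate 3. None reversed a called difference. The replicate blocks, the compared groups alone and the dim filter leave each such difference unchanged by construction. Leaving out 1 of the 3 arrays of a group cannot move it by more than that spread. The count of 307 is therefore no measure of how stable the differences are. xbp1 in embryos, near 0, changed sign in 2 of 13. Of 766 alternatives of 60 called list genes, 705 kept the call and 61 lost it, with no reversal. The main fit called 2834 probe sets in retina and 1044 in embryos. At an adjusted p under 0.001, 1201 probe sets were called in retina (1 ER list gene higher, 2 lower). In RPE-attached retina 3328 were called (15 higher, 17 lower), and in embryos 260 (1 higher, 0 lower). For RPE-attached retina minus retina the count was 424 (1 higher, 5 lower), and for retina minus embryo 378. It was 1128 for wild type RPE-attached against bare retina and 5683 for wild type retina against embryo. With the replicate block over embryo and retina arrays, the counts were 4807 in retina (9 higher, 34 lower), 2525 in embryos (6 higher, 21 lower) and 2314 for their difference. With the block over all arrays, 3357 probe sets were called in retina (4 ER genes higher, 19 lower) and 1387 in embryos (3 higher, 8 lower). Without the lens-high arrays, 1537 probe sets were called in retina (3 ER genes lower), 1471 for RPE-attached retina minus retina (9 higher, 10 lower) and 610 for retina minus embryo, with fewer arrays in the fit. The ER genes higher in retina were 2 after subtracting array medians (2862 probe sets called) and 4 with array weights (3506 called). Those lower in embryos were 2 in the compared groups alone (763 probe sets called). Leaving out 1 array at a time gave 1 to 2 ER genes higher (2 without replicate 1 or 2 of either genotype) and 7 to 14 lower in retina (7 without mutant replicate 2 and also without wild type replicate 3), and 0 to 4 lower in embryos (0 without mutant replicate 2 and also without wild type replicate 3). Where no construction of the alternative shows it, the cause was not tested. The authors' processing before deposit could not be varied here, and differences between dim probe sets are limited by background.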

Other observations

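Chaperones outside the ER were measured as a comparison. Of 39 cytosolic chaperone genes, 6 rose and 3 fell in mutant retina by limma (10.1% and 9.5% of all genes). In mutant embryos 1 rose and 0 fell (3.73% and 3.66% of all genes). At an unadjusted limma p under 0.05, 7 and 3 passed in embryos (9.25% and 8.8% of all genes). The fit with the replicate block called 8 higher and 4 lower in retina (17.7% and 15.8% of all genes), and 7 and 2 in embryos (8.98% and 8.54%). In mutant RPE-attached retina 14 rose and 4 fell. In RPE-attached retina these are 35.9% and 10.3%, against 28.2% and 21.3% of all genes, and the median difference was 0.26, against 0.06 over all genes. dnajb1b, a partner of cytosolic HSP70, rose in retina (0.84 ± 0.12, limma adjusted p = 2e-05) and RPE-attached retina (0.91 ± 0.12, limma adjusted p = 3.51e-06). fkbp4, a co-chaperone of HSP90, rose in retina (0.48 ± 0.15) and RPE-attached retina (1.07 ± 0.15). The constitutive HSP70 gene hspa8 (0.56 ± 0.10) and the chaperonin subunit genes tcp1 (0.70 ± 0.13) and cct2 (0.66 ± 0.13) rose in RPE-attached retina, though a dimmer cct2 probe set was called lower there (-0.47). hspa4l, an exchange factor of cytosolic HSP70, fell in retina (-0.69 ± 0.16) and RPE-attached retina (-0.77 ± 0.16).

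Of 13 mitochondrial chaperones and proteases, 0 rose and 1 fell in mutant retina by limma (10.1% and 9.5% of all genes). In mutant RPE-attached retina 2 rose and 3 fell (28.2% and 21.3% of all genes). In mutant embryos 0 rose and 2 fell (3.73% and 3.66% of all genes). At an unadjusted limma p under 0.05, 1 and 3 passed in retina (15.5% and 13.8% of all genes). In embryos 2 and 3 passed (9.25% and 8.8% of all genes). The fit with the replicate block called 2 higher and 3 lower in retina (17.7% and 15.8% of all genes), and 2 and 2 in embryos (8.98% and 8.54%). clpp, a matrix protease subunit, fell in retina (-0.38 ± 0.12), RPE-attached retina (-0.42 ± 0.12) and embryos (-0.54 ± 0.12), with the retina call lost in 6 of 14 alternatives. trap1, the mitochondrial HSP90, fell by 2.33-fold in embryos (-1.22 ± 0.18, limma adjusted p = 0.000135). hspa9, the mitochondrial HSP70, rose in RPE-attached retina (0.81 ± 0.15), and its dimmer probe set was not called (0.33).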
